A study of Homo sapiens with 6 samples.

Results

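Transcripts of the G protein-coupled receptor kinases GRK2 to GRK6 and of the beta-arrestins ARRB1 and ARRB2 were examined in the MDA-MB-231 line, which derives from human triple-negative breast cancer and has a mesenchymal character. The cells had been given 50 µM TCI04, a compound identified in the labels by this code alone, or phosphate-buffered saline (PBS) for 48 h, with 3 Affymetrix arrays per group. All cultures were grown in serum-containing medium. The probe sets were chosen by gene name: every non-control probe set whose single symbol in the platform annotation is GRK2, GRK3, GRK4, GRK5, GRK6, ARRB1 or ARRB2. This gave 25 of 54613 non-control probe sets, for 6 of the 7 genes. The annotation used here named no probe set for ARRB2, which is not analysed here. The gene family was proposed after GRK2 had been seen among the genes with the smallest p between TCI04 and PBS. The contrast of GRK2 is therefore given as a description, and no result below is offered as support for that choice.

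Activated G protein-coupled receptors are switched off by a common machinery. A GRK phosphorylates the occupied receptor, a beta-arrestin then binds the phosphorylated tail, uncouples the G protein and links the receptor to clathrin and its adaptor AP-2 for internalisation. Beta-arrestins also act as scaffolds for kinases such as ERK. GRK2 and GRK3 are cytosolic and reach the membrane by binding free G protein beta-gamma subunits. GRK4, GRK5 and GRK6 are held at the membrane by lipids or lipid modification. In breast cancer cells these proteins act on receptors for chemokines, lysophosphatidic acid and thrombin, among others.

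The values were MAS5 signals, which summarise the probes of a probe set within 1 array on a linear scale. The trimmed mean signal was 500.1 on all 6 arrays, and the median signal was 58.9 to 59.8 in the TCI04 arrays and 64.0 to 74.3 in the PBS arrays. Arrays correlated across probe sets about as well between groups (Spearman 0.931 to 0.940) as within them (0.932 to 0.938). The ratio of 3' to 5' ACTB control signal, a measure of RNA integrity, was 3.33 in TCI04 replicate 3. It was 1.70 and 1.71 in the other TCI04 arrays and 1.64 to 1.72 in the PBS arrays. For GAPDH it was 1.21 in TCI04 replicate 3, 0.97 and 1.08 in the other TCI04 arrays and 0.98 to 1.07 in the PBS arrays. Probe sets were filtered on the mean of their log2 signals, at a level equal to a signal of about 33.9. Of 9 measured markers of mesenchymal breast cancer cells, 9 lay above this filter. Their summed signal was 149420 to 151750 in the TCI04 arrays and 146900 to 157710 in the PBS arrays. Of 9 luminal or epithelial markers, 6 lay above the filter and PGR, TFF1 and CDH1 below. The summed signal of these 9 was 2292 to 3303 in the TCI04 arrays and 3080 to 3496 in the PBS arrays. None of 4 measured leukocyte markers lay above it, with sums of 50.3 to 129 in the TCI04 arrays and 59.2 to 110.1 in the PBS arrays. For 5 fibroblast markers, 2 of them above it, the sums were 499 to 686 in the TCI04 arrays and 592 to 603 in the PBS arrays. For 4 endothelial markers, 2 of them above it, the sums were 211 to 251 in the TCI04 arrays and 277 to 284 in the PBS arrays. The part of these markers in the results was not tested. Separate cultures per array are not stated in the labels, so the p-values below cover only the spread among these arrays, and that spread may be technical.

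The 25 probe sets were dim to moderate. After a filter on mean log2 signal, 19 were tested together with 32727 other probe sets in a linear model across all of them (limma), and 6 were left as values with no test. Among the 19, mean signals ran from 54.3 to 441. Signals of different probe sets cannot be set against each other, so no order of levels between the genes is given.

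**Figure D1:**
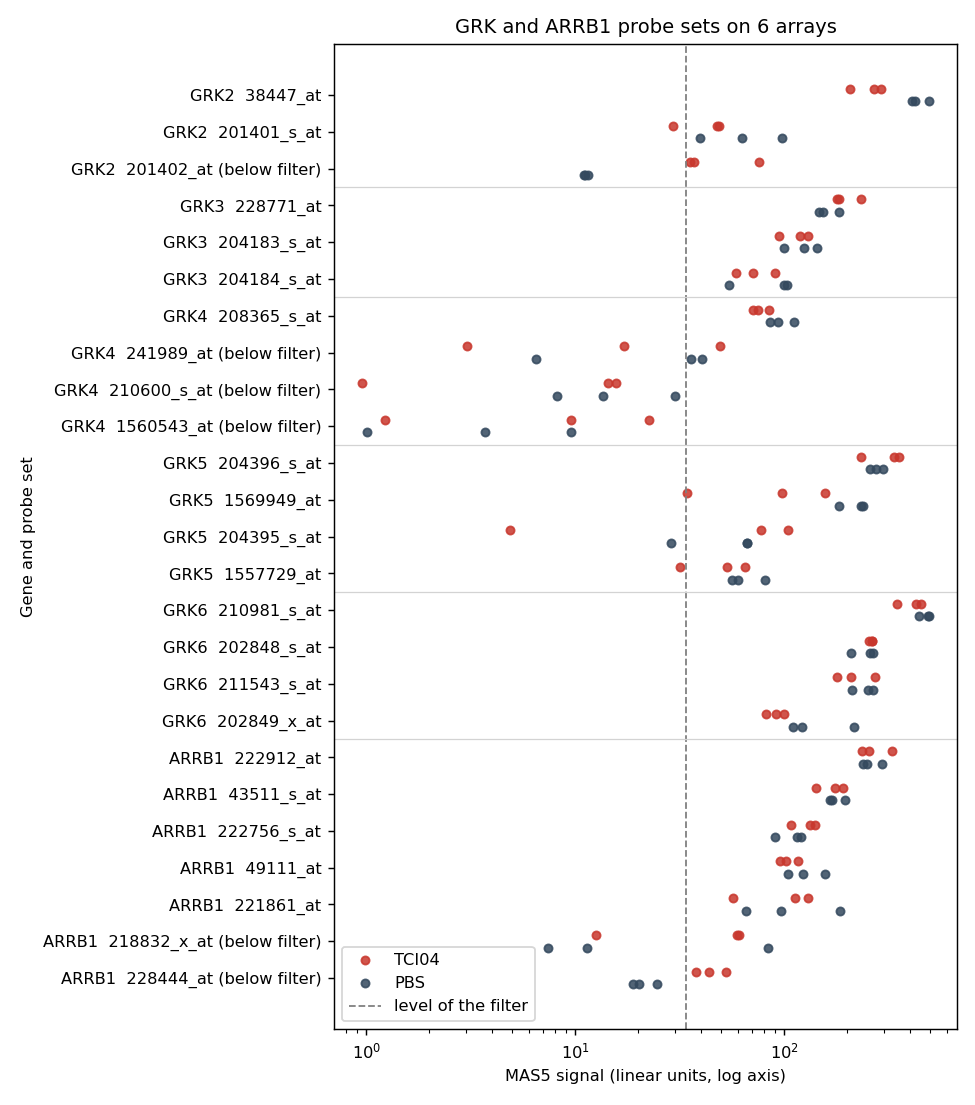
MAS5 signal on a log axis for each of the 25 probe sets of the kinases and ARRB1, with 1 point per array and TCI04 drawn above PBS in each row. The dashed line marks the filter, set on mean log2 signal, at a level equal to a signal of about 33.9. Most rows overlap between groups. All TCI04 points lie below all PBS points for GRK2 38447_at, GRK4 208365_s_at, GRK5 1569949_at and GRK6 202849_x_at. All TCI04 points lie above all PBS points for GRK2 201402_at and ARRB1 228444_at.

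No probe set of the family passed the adjusted threshold of 0.05 (limma, lowest adjusted p = 0.697 over all 32746 probe sets tested), where 0.00305% of all tested probe sets, a single one for FOS, did. At an unadjusted p under 0.05 there were 3 of 19, all with lower means with TCI04, against 4.88% of all tested probe sets in that direction. These were GRK2 38447_at, GRK5 1569949_at and GRK6 202849_x_at. Of the 19, 14 had a lower and 5 a higher mean log2 signal with TCI04, with a median log2 difference of -0.17. Of all tested probe sets 56.2% were lower, their median difference was -0.03, and dimmer ones lay further down. The median was -0.15 over the 9804 tested probe sets with a mean signal under 100 and -0.05 over the 10735 between 100 and 500, the range that holds 14 of the 19. The split also moved with scaling: it was 12 lower and 7 higher after quantile normalisation, where 47.4% of all tested probe sets were lower. It was 10 lower and 9 higher, where 28.5% of all were lower, with arrays centred on their medians, which raised the median difference of all probe sets by 0.16. The median of the 19 was then -0.07 and -0.01, against 0.01 and 0.13 over all tested probe sets.

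The TCI04 and PBS arrays did not overlap for 4 of the 19, all with TCI04 lower (GRK2 38447_at, GRK4 208365_s_at, GRK5 1569949_at and GRK6 202849_x_at), where 8.19% of all tested probe sets showed this. None of the 19 had all TCI04 arrays above all PBS arrays, against 5.35% of all. Because GRK2 was known to be lower when the family was proposed, nothing is read from these counts.

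**Figure D2:**
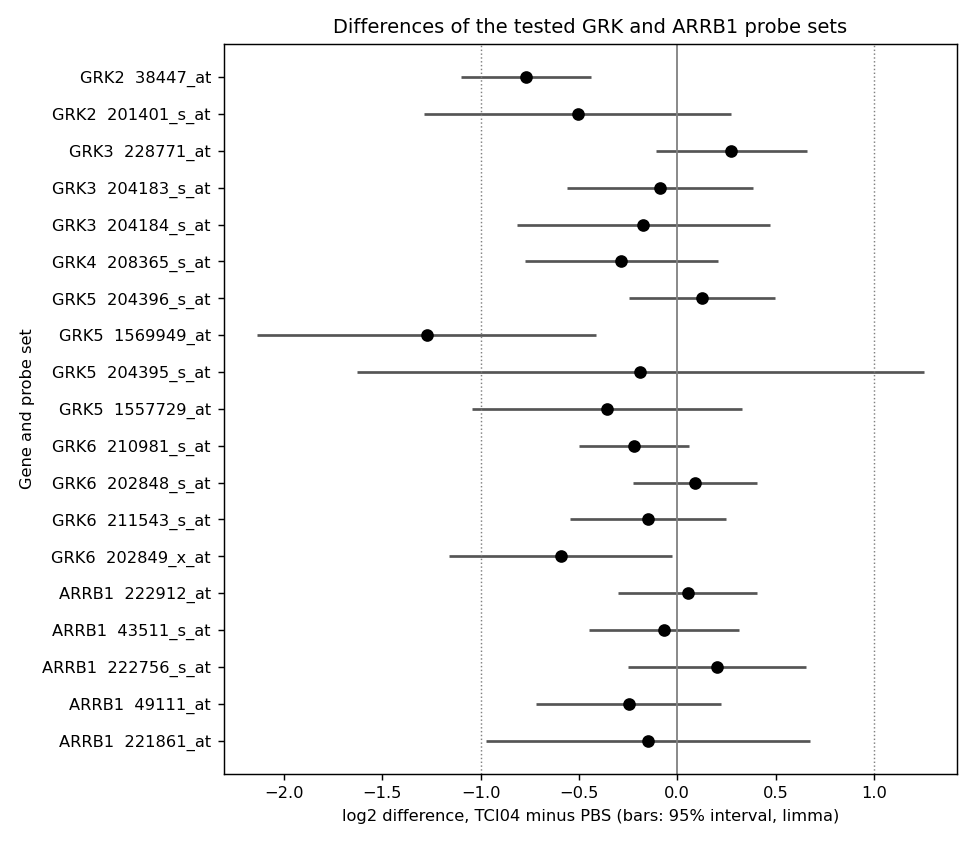
Log2 difference of TCI04 minus PBS with its 95% interval (limma) for the 19 tested probe sets, 3 arrays per group. Dotted lines mark a 2-fold difference in either direction. The intervals of 3 probe sets lie wholly below 0 and the other 16 include 0.

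Proximal promoters are shown for the 4 genes with a tested probe set whose TCI04 arrays all lay below the PBS arrays. They come from RefSeq on GRCh38.p14 and cover 250 bases before to 50 bases after the gene start, on the plus strand, 5′ to 3′. Capitals mark GC boxes (GGGCGG on either strand), the element bound by SP family factors. Of the 7 genes, 5 had an entry, and GRK3 and ARRB1 did not.
GRK2, chr11:67266223-67266522: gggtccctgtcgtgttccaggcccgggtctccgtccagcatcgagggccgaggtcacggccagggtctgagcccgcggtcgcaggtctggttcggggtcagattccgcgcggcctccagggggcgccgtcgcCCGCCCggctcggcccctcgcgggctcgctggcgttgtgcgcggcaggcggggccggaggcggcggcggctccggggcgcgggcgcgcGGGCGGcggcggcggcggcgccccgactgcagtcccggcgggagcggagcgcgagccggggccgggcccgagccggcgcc
GRK4, chr4:2963321-2963620: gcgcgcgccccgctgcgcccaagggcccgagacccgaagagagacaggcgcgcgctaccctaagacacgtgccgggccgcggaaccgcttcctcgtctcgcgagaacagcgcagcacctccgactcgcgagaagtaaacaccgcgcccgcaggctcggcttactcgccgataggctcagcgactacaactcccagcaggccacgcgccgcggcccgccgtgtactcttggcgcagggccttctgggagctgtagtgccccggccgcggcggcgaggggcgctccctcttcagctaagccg
GRK5, chr10:119207321-119207620: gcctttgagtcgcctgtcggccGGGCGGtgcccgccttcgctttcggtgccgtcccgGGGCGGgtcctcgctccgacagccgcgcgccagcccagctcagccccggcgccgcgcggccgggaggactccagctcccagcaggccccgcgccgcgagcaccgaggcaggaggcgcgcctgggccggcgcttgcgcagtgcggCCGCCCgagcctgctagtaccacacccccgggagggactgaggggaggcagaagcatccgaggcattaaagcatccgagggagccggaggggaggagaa
GRK6, chr5:177426426-177426725: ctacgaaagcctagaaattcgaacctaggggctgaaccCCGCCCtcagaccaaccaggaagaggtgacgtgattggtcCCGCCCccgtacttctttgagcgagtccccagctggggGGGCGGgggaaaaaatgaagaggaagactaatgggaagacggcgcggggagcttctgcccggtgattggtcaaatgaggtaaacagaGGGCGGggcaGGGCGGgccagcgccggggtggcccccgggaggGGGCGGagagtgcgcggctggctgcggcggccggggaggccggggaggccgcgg

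The GRK2 promoter held 2 GC boxes, GRK4 held 0, GRK5 held 3 and GRK6 held 6. At least 1 GC box was found in 45% of 35116 promoters of the same length, which were not matched for G and C content. The ARRB2 window, not shown because no probe set was named for it, held 4 GC boxes and 2 CCAAT boxes. The GRK2 window was 82.3% G or C, the GRK5 window 75%, the GRK4 window 71% and the GRK6 window 67.3%, against a median of 58.7% over all promoters. An AP-1 site (TGANTCA), the element bound by FOS and JUN, was found in none of the 4 windows and in 7.71% of all promoters. A cAMP response element (TGACGTCA) was likewise found in none of the 4 and in 1.85% of all. GRK6 held 2 CCAAT boxes (CCAAT, on either strand, found in 34.6% of all), and GRK4 held 1 E-box (CACGTG, found in 7.26% of all). These are matches of letters in a short window and say nothing about binding.

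GRK2, the most widely expressed receptor kinase, was read by 3 probe sets that did not move alike. The brightest, 38447_at, had signals of 268, 290.1 and 207 in the TCI04 arrays, against 492, 407 and 421 in the PBS arrays. Every TCI04 array lay below every PBS array, with the lowest signal in TCI04 replicate 3. The means were 255 ± 42.9 with TCI04 and 439.8 ± 45.4 with PBS (SD, n = 3 arrays each), 1.72-fold lower with TCI04. On the log2 scale this was -0.77 ± 0.15 (standard error), with 95% bounds of -1.10 and -0.44 (limma, adjusted p = 0.697, rank 9 of 32746 by p). The difference thus failed the correction over all probe sets. It was -0.63 without TCI04 replicate 3, the array with the high ACTB ratio (adjusted p = 0.495), -0.72 after quantile normalisation and -0.61 with median centring.

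The second GRK2 probe set, 201401_s_at, had signals of 48.7, 29.3 and 47.9 with TCI04, against 62.6, 39.7 and 97.7 with PBS. The groups overlapped, and PBS replicate 2 lay below 2 of the 3 TCI04 arrays. Its log2 difference was -0.51, with a 95% interval from -1.29 to 0.27 (limma, adjusted p = 0.745). It was -0.23 without PBS replicate 3, the highest array, and -0.78 without PBS replicate 2.

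The third, 201402_at, pointed the other way. Its signals were 35.4, 36.9 and 76.1 with TCI04, against 11.4, 11.2 and 11.0 with PBS. All TCI04 arrays lay above all PBS arrays, and the PBS arrays sat near the offset of 10.96 added before taking logs. The mean fell below the filter, so this probe set was not in the fit; its log2 difference was 1.38. Among all probe sets below the filter, 2.8% had every TCI04 array above every PBS array. In a fit with no filter its adjusted p was 0.724, with a 95% interval from 0.53 to 2.23. The array that was lowest for 38447_at, TCI04 replicate 3, was the highest for 201402_at. The files do not say which part of the transcript each probe set reads, so which of the 3 follows the GRK2 transcript was not tested.

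**Figure D3:**
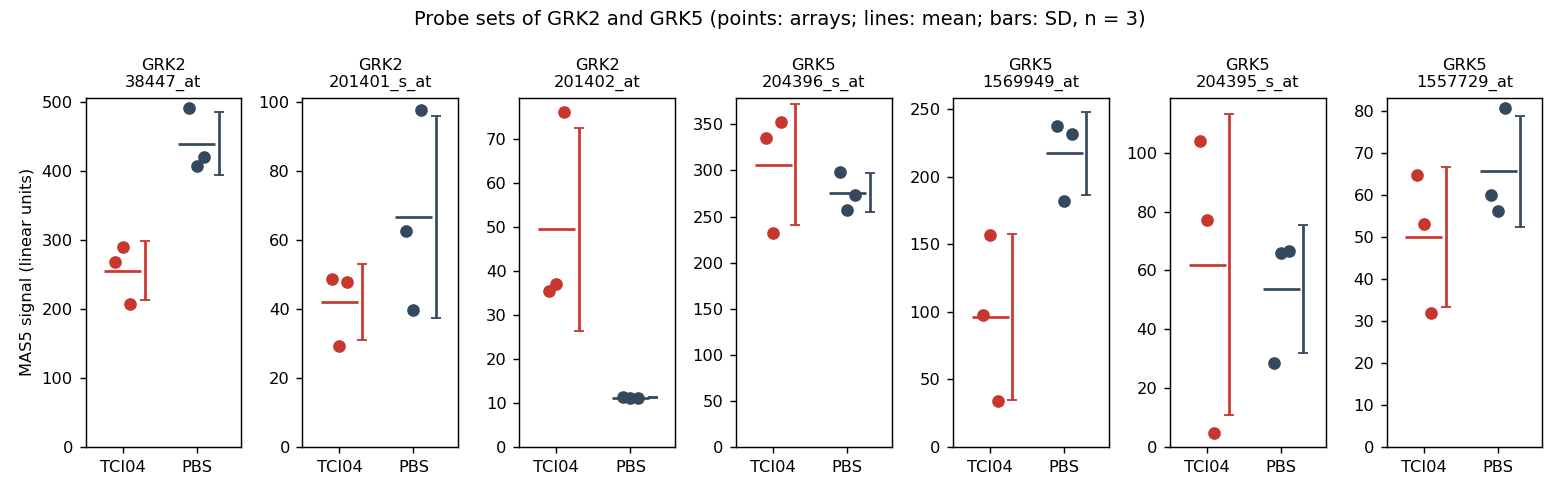
MAS5 signal by array for the 3 probe sets of GRK2 and the 4 of GRK5, each on its own linear axis from 0, with TCI04 left of PBS; lines are means and bars the SD of 3 arrays. For GRK2, 38447_at is lower and 201402_at higher with TCI04, and for GRK5 only 1569949_at has groups that do not overlap.

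GRK3, the close relative of GRK2, had overlapping groups in all 3 of its probe sets. The brightest, 228771_at, had signals of 178, 182 and 232 with TCI04, against 154, 182 and 146 with PBS. PBS replicate 2 overlapped the TCI04 arrays, and the mean was higher with TCI04. The log2 difference was 0.28, with a 95% interval from -0.11 to 0.66 (limma, adjusted p = 0.723), and 0.16 without TCI04 replicate 3. For this probe set and the spread of these arrays, the interval did not reach a fall of 1.5-fold. The other GRK3 probe sets, 204183_s_at and 204184_s_at, had log2 differences of -0.09 and -0.17, and the first turned to 0.02 after quantile normalisation and 0.07 with median centring. Their intervals ran from -0.56 to 0.39 and from -0.82 to 0.47. The value of 204184_s_at ran from -0.43 without PBS replicate 2 to -0.03 without PBS replicate 1.

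GRK4 is a kinase best known from testis and kidney. Of its probe sets only 208365_s_at passed the filter, with signals of 75.2, 70.9 and 84.8 with TCI04, against 111, 92.8 and 85.6 with PBS. The groups were separate by less than 1 signal unit, between TCI04 replicate 3 and PBS replicate 3. It differed by -0.28 (log2), with a 95% interval from -0.78 to 0.21 (limma, adjusted p = 0.767), and -0.12 with median centring. The other 3 GRK4 probe sets had signals from 0.958 to 49.4 with TCI04 and from 1.01 to 40.6 with PBS, with overlapping groups in each.

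GRK5, a membrane-bound kinase that also enters the nucleus, gave different values in its 4 probe sets. The brightest, 204396_s_at, had signals of 335, 232 and 353 with TCI04, against 298, 257 and 273 with PBS. The TCI04 arrays lay on both sides of the PBS arrays. A log2 difference of 0.13 resulted, with a 95% interval from -0.25 to 0.50 (limma, adjusted p = 0.868). On this probe set alone, and for the spread of these arrays, the interval did not reach a fall of 1.5-fold.

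A second GRK5 probe set, 1569949_at, had signals of 97.9, 157 and 34.2 with TCI04, against 238, 182 and 232 with PBS. Every TCI04 array lay below every PBS array, and the TCI04 arrays spread over a wide range with replicate 3 the lowest. The means were 96.3 ± 61.2 with TCI04 and 217 ± 30.4 with PBS (SD, n = 3 arrays each), 2.26-fold lower with TCI04. On the log2 scale this was -1.27 ± 0.39 (standard error), with 95% bounds of -2.14 and -0.41 (limma, adjusted p = 0.697), so it failed the correction. It shrank to -0.75 without TCI04 replicate 3 and was -1.69 without TCI04 replicate 2.

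The remaining GRK5 probe sets overlapped between groups. For 204395_s_at the TCI04 signals were 104, 77.2 and 4.85, and the PBS signals 28.6, 66.1 and 66.6. Here too TCI04 replicate 3 was the lowest array, and the log2 difference of -0.19 turned to 0.70 without it. For 1557729_at the TCI04 signals were 64.7, 53.1 and 31.9, against 60.01, 56.0 and 80.6 with PBS, with a log2 difference of -0.36 that was -0.12 without TCI04 replicate 3.

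GRK6, the kinase of the chemokine receptor CXCR4 in leukocytes, was read by 4 probe sets, all tested. The brightest, 210981_s_at, had signals of 449.9, 426 and 344 with TCI04, against 489, 493 and 441 with PBS. The lowest PBS array lay between the TCI04 arrays. The log2 difference was -0.22, with a 95% interval from -0.50 to 0.06 (limma, adjusted p = 0.706), -0.11 without TCI04 replicate 3 and -0.06 with median centring. GRK6 202848_s_at had 263, 253 and 262 with TCI04, against 266, 209 and 258 with PBS, a log2 difference of 0.09 that turned to -0.01 without PBS replicate 2. GRK6 211543_s_at had a log2 difference of -0.15, which turned to 0.01 with median centring.

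The fourth GRK6 probe set, 202849_x_at, had signals of 82.1, 99.5 and 91.4 with TCI04, against 109.6, 215 and 122 with PBS. The groups did not overlap, and PBS replicate 2 stood far above the other PBS arrays. It differed by -0.59 (log2), with a 95% interval from -1.16 to -0.03 (limma, adjusted p = 0.697), and -0.31 without PBS replicate 2. In a fit with no filter the interval ran from -1.21 to 0.02 and so included 0. The difference was -0.47 after quantile normalisation and -0.43 with median centring. The suffix of this probe set marks probes that can match other transcripts, and no other GRK6 probe set had groups that did not overlap.

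ARRB1, the beta-arrestin measured here, was read by 7 probe sets, 5 of them tested, and their differences lay on both sides of 0. The brightest, 222912_at, had signals of 235, 253 and 328 with TCI04, against 292, 239 and 249 with PBS. The groups overlapped throughout, and the log2 difference was 0.05, with a 95% interval from -0.30 to 0.41 (limma, adjusted p = 0.945). It turned to -0.08 without TCI04 replicate 3. This interval lies within a 1.5-fold difference in both directions.

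The next ARRB1 probe set by signal, 43511_s_at, had 174, 190.04 and 142 with TCI04, against 195, 169 and 166 with PBS. Its log2 difference of -0.07, with an interval from -0.45 to 0.31, turned to 0.01 after quantile normalisation and 0.09 with median centring. The other tested ones were 222756_s_at at 0.20, 49111_at at -0.25 and 221861_at at -0.15, all with overlapping groups. Leaving out single arrays moved these to between 0.09 and 0.30, between -0.37 and -0.10, and between -0.46 and 0.22.

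Both ARRB1 probe sets below the filter had higher means with TCI04. For 228444_at the signals were 52.9, 43.5 and 37.8 with TCI04, against 20.1, 24.6 and 19.0 with PBS. All TCI04 arrays lay above all PBS arrays, as for 2.8% of probe sets below the filter, with a log2 difference of 0.79. For 218832_x_at they were 60.4, 59.5 and 12.6 with TCI04, against 7.37, 83.3 and 11.4 with PBS, so arrays of both groups spread over most of the range. The brighter ARRB1 probe sets showed no such separation.

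The precision of the arrays set what could be seen. The 95% interval of a tested probe set of the family reached 0.28 to 1.44 to each side, with a median of 0.47, against a median of 0.37 over all tested probe sets. For 13 of the 19 the whole interval lay within a 2-fold difference, and for 7 of the 19 within a 1.5-fold difference.

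The genes whose pattern over the 6 arrays was most like that of GRK2 38447_at were SEZ6L2, SEPTIN3, SLC17A7, SPINK13 and GTF2I. Likeness was the root mean square difference between log2 deviations from each gene's own mean, taken over 13678 genes, and these 5 had 0.11 to 0.12, against a median of 0.45 over all genes. GTF2I, a general transcription factor, had signals of 250.1, 341 and 187 with TCI04, against 448, 392 and 404 with PBS. Its TCI04 arrays all lay below its PBS arrays and TCI04 replicate 3 was the lowest, as for GRK2. The seizure-related protein SEZ6L2 had signals of 101, 102 and 64.1 with TCI04, against 161, 158 and 136 with PBS, although its other tested probe sets gave log2 differences from -0.49 to 0.01. None of the 5 passed the adjusted threshold (limma, adjusted p = 0.697 to 0.702). With 6 arrays in 2 groups, genes picked from this many for the smallest difference will look alike.

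Genes that work before and after the kinases were described by 9 lists holding 155 genes, of which 111 were tested by the probe set with the highest mean. None of the 111 passed (limma), where 0.00731% of 13679 genes did, and 8 had an unadjusted p under 0.05, 7.21% against 7.05% of all genes. The median log2 difference of all genes was 0.00, or 0.02 after quantile normalisation and 0.16 with median centring. That centring added 0.16 to each gene's value, so the smaller negative values below turned positive under it.

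**Figure D4:**
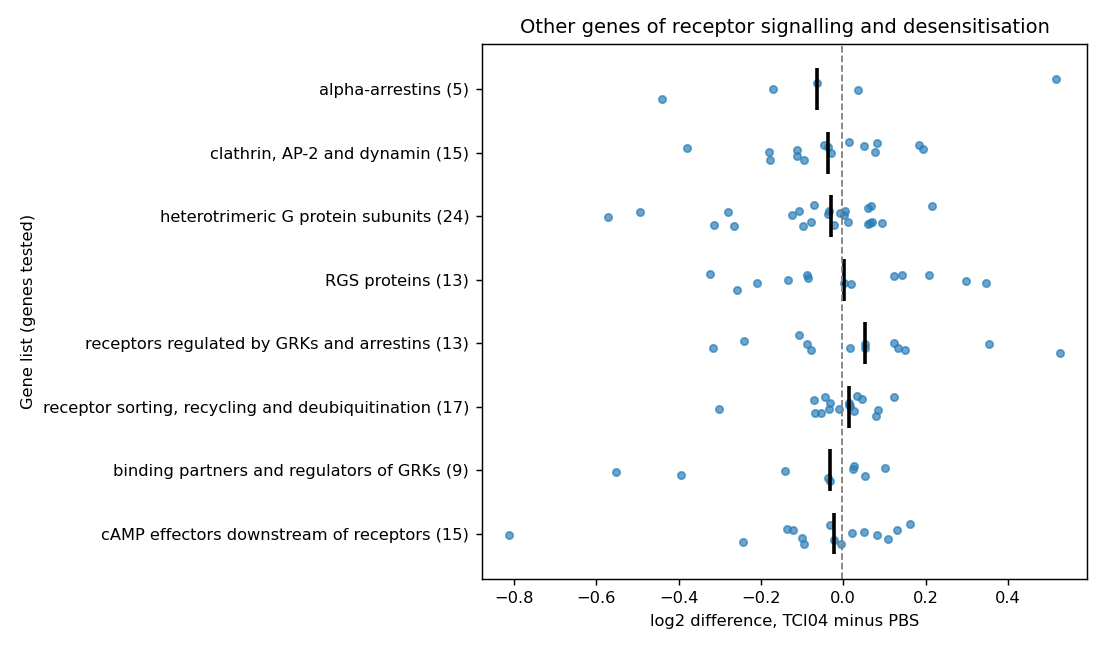
Log2 difference of TCI04 minus PBS for each tested gene of the 8 lists with at least 5 tested genes, 1 point per gene, with list medians as black bars and the median of all genes as a dashed line. The medians lie between -0.06 and 0.05 and the points of every list spread to both sides of 0.

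Among heterotrimeric G protein subunits, the direct partners of the receptors, 10 of 24 had a higher and 14 a lower mean, with a median of -0.03. The stimulatory subunit GNAS, the inhibitory subunit GNAI3 and the gamma subunit GNG5, the members with the highest level, had log2 differences of -0.08, -0.01 and 0.00. Other probe sets of GNAS gave -0.09 to 0.23 and those of GNAI3 -0.05 to 0.18. The subunit GNA11, which couples receptors to phospholipase C, had signals of 2204, 2210 and 1639 with TCI04, against 2413, 2515 and 2293 with PBS, a log2 difference of -0.27 (limma, adjusted p = 0.697). The value was -0.12 without TCI04 replicate 3, and other tested probe sets of GNA11 gave -0.46 to 0.01. GNB5, the beta subunit that pairs with some RGS proteins, had 0.22, and its other probe sets -0.19 to 0.10.

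RGS proteins, which speed the shut-off of G alpha subunits, had 7 higher and 6 lower means, with a median of 0.00. RGS10, RGS19 and RGS2 had log2 differences of 0.14, 0.02 and -0.13, and RGS20 had 0.30. Among 13 tested receptors known as substrates of GRKs or cargo of arrestins, 8 had a higher and 5 a lower mean, with a median of 0.05. The adenosine receptor ADORA2B, the lysophosphatidic acid receptor LPAR1 and the prostaglandin receptor PTGER4 had 0.02, 0.05 and 0.12. ADORA2B turned to -0.01 after quantile normalisation, and other probe sets of LPAR1 gave -0.02 to 0.03. The beta-adrenergic receptor ADRB1 had signals of 126, 136 and 117 with TCI04, against 97.9, 94.1 and 97.2 with PBS. Its groups did not overlap, as for 13.6% of all genes in either direction, and its log2 difference of 0.35 did not pass (limma, adjusted p = 0.705).

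Alpha-arrestins, relatives of the beta-arrestins that recruit ubiquitin ligases, had 2 higher and 3 lower means. ARRDC3, which acts on the beta-adrenergic receptor and on integrin in breast cancer cells, had signals of 462, 337 and 379.5 with TCI04, against 293, 238 and 279 with PBS. All TCI04 arrays lay above all PBS arrays, with a log2 difference of 0.52 and a 95% interval up to 0.85 (limma, unadjusted p = 0.00551, adjusted p = 0.697). It was 0.56 after quantile normalisation and 0.68 with median centring. ARRDC1, ARRDC2 and the thioredoxin-binding protein TXNIP had -0.44, -0.17 and 0.04. ARRDC1 was at -0.28 without TCI04 replicate 3, and other probe sets of TXNIP gave -0.66 to -0.01.

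In the endocytic machinery of clathrin, AP-2 and dynamin, 6 of 15 genes had a higher and 9 a lower mean, with a median of -0.04, which turned to 0.12 with median centring. The clathrin chains CLTC and CLTA and the AP-2 subunit AP2S1 had -0.04, -0.03 and -0.10, while a second probe set of CLTC gave -0.76 and others of CLTA -0.34 to 0.59. The dynamin DNM2, the scission enzyme of coated vesicles, had signals of 261, 276 and 234 with TCI04, against 381, 313 and 322 with PBS, without overlap. Its log2 difference was -0.38 (limma, adjusted p = 0.697), while its other tested probe set gave 0.05. The endocytic adaptor EPS15 had 0.18. Of 17 genes of receptor sorting and recycling, 9 had a higher and 8 a lower mean. RAB11A, VPS26A and VPS35 had -0.06, 0.03 and 0.01, the ESCRT protein HGS -0.30 and the arrestin deubiquitinase USP33 0.08. HGS was at -0.07 without TCI04 replicate 3, and other probe sets of USP33 gave -0.62 to -0.12. Those of RAB11A gave 0.11 to 0.12 and those of VPS35 -0.11 to 0.13.

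Among 9 tested partners and regulators of GRKs, 4 had a higher and 5 a lower mean. The caveolar protein CAV1, which binds and inhibits GRK2, was at 23061 ± 1197 with TCI04 and 23574 ± 539 with PBS (SD, n = 3 arrays each), a log2 difference of -0.03 that turned to 0.04 after quantile normalisation. ACTN1, PRKCD and GIT1 had 0.02, -0.55 and -0.40, and other probe sets of ACTN1 gave -0.33 to -0.27. PRKCD was at -0.22 without TCI04 replicate 3, and GIT1 at -0.07 without TCI04 replicate 2. Of 15 cAMP effectors, 6 had a higher and 9 a lower mean, and the protein kinase A subunits PRKAR1A, PRKAR2A and PRKACB had -0.01, 0.13 and 0.08. Their other probe sets gave -0.03 to 0.20, -0.39 to 0.07 and -0.28 to 0.00. PRKAR1B had -0.81, with TCI04 replicate 3 at 13.2 and the other arrays at 63.1 and 84.4 with TCI04 and 67.2 to 113 with PBS, and was at -0.21 without TCI04 replicate 3. The transcription factor CREB1 had -0.12, and its other probe sets -0.16 to 0.16. Of the retinal kinases and arrestins, GRK1, GRK7 and SAG lay below the filter and ARR3 had signals of 20.3, 42.2 and 84.5 with TCI04, against 79.0, 136 and 115 with PBS, a log2 difference of -1.13 that was -0.74 without TCI04 replicate 1.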

How the data were processed

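RNA from MDA-MB-231 cells, 3 samples with TCI04 and 3 with PBS, was hybridised to Affymetrix arrays. The deposited table holds intensity values, which the authors computed with MAS5, per the submitters' processing notes (version not given in the sources used here); their trimmed mean was the same on all arrays. No detection calls were used, and the number of arrays limits the precision.

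Platform annotation gave 1 symbol to 41097 of 54675 probe sets, several to 1801 and none to 11777. Signals became log2(signal + 10.96), where the offset is the 20th percentile of all values; this understates differences of dim probe sets. The 62 controls and probe sets below the 40th percentile of mean log2 signal were dropped, leaving 32746. Using limma 3.58.1 (R 4.3.3), TCI04 minus PBS was fitted with lmFit and eBayes (trend, two-sided), and p-values were adjusted by Benjamini-Hochberg over all probe sets tested, with a threshold of 0.05. The steps were also run on simulated data with independent normal noise, as a check of the code only.

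The gene family, its members and the lists were chosen with earlier results of these data known. Named list genes were, per list, the 3 with the highest mean signal and the 2 with the smallest unadjusted p. Alternatives were scaling, offset, filter, variance model, array weights, a replicate block and each array left out.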

Additional observations from a re-analysis of the deposited data

Results flagged for a closer look

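2 probe sets of the family that were too dim for the fit had every TCI04 array above every PBS array. GRK2 201402_at had a log2 difference of 1.38, with signals of 35.4 to 76.1 in the TCI04 arrays and 11.0 to 11.4 in the PBS arrays, opposite in direction to GRK2 38447_at at -0.77. ARRB1 228444_at had a log2 difference of 0.79, with 37.8 to 52.9 in the TCI04 arrays and 19.0 to 24.6 in the PBS arrays. Of all probe sets below the filter, 2.8% had this order. In a fit with no filter neither passed (limma, adjusted p = 0.724 and 0.75).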

How the results depend on the processing

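None of the 19 tested probe sets of the family passed the adjusted threshold under any of 16 alternatives, and no list gene passed in them or when probe sets of 1 gene were averaged; the lowest adjusted p over these probe sets was 0.281, for GRK2 38447_at and GRK5 1569949_at with median centring (limma). The log2 difference of GRK2 38447_at stayed between -0.86 and -0.61, with adjusted p from 0.281 to 0.809, and between -0.86 and -0.63 with single arrays left out. With the replicate number as a block, 0 probe sets of the family passed, 0 list genes passed and the adjusted p of GRK2 38447_at was 0.344 at a log2 difference of -0.77; deviations of same-numbered arrays correlated at 0.00 to 0.06, and 4 of 6 arrays correlated best with the array of their own number. Of the 19 differences, 12 had the same sign in all alternatives that tested them, and 7 turned in at least 1. At an unadjusted p under 0.05 the family had 2 to 3 probe sets in the alternatives that kept a filter, where 5.77% to 8.75% of all probe sets were at that level, or 15.3% with median centring (3 of 19), and 4 of 25 without a filter, where 6.65% of all were. The number of list genes at that level ran from 5 to 12, where 4.84% to 8.49% of all genes were, except for 22 of 111 with median centring, which raised all differences and had 19.4% of all genes at that level.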
